A study of Lates calcarifer with 24 samples.

Results

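The comparison described here is that of livers from Group F, which received the commercial pellet named Feed F, against livers from Group A, which received frozen baitfish. All arrays titled Group F (n = 4) and Group A (n = 4) entered it, 8 of the 24 arrays of the series. The animals were juvenile Asian seabass (Lates calcarifer), full siblings from 1 pair cross. They were put on the feeds at 107 days post-hatch and sampled 61 days later, at 168 days post-hatch. The labels give 4 fish per group, whereas the study's methods give 8 individuals per feed type for liver RNA. How these numbers relate was not settled here. The arrays of Groups B to E (n = 4 each) served as a second reference. They also entered the normalization and the estimate of spread behind every p-value of the main fit. Group F was fed a slow-sinking pellet at 1.8% of body weight per day and Group A a mix of wild-caught scads at 6.1%. Groups B to E received other commercial pellets at 2.2%. These rations are wet weights and are those of the study's own Groups A to F. The study set the baitfish ration higher to keep average energy intake level, since baitfish holds far less dry matter than pellets. It reports a somewhat lower daily energy intake on its Feed F than on the other feeds. The group letters used below follow the sample titles, and it was not settled here whether those letters name the same feeds as the letters of the study's text. The study left its Group F out of its own array comparisons, and since ration, form and composition of the feed all differed between the groups, their parts cannot be told apart.

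The liver of a carnivorous marine fish takes up the lipids of the diet and builds cholesterol. In the study's account, Asian seabass is usually considered, like other marine fishes, to turn few or no shorter polyunsaturated fatty acids into long-chain ones. In the pathway of that conversion the desaturase encoded by fads2 adds double bonds and the elongase encoded by elovl5 adds carbon pairs. The sterol reductase encoded by tm7sf2 acts late in cholesterol synthesis. Hepatocytes also secrete most plasma proteins, among them the protease inhibitor encoded by serpina1 and the lipopolysaccharide-binding protein encoded by lbp. The array probes carry design numbers instead of gene names, and 15 of the 60080 probes were paired with a symbol by the study's supplementary tables. All other probes are unnamed here. The sequences of the probes were not used here. The quantitative PCR primers that the study paired with the probes of fads2, elovl5 and tm7sf2 are printed 5′ to 3′ because these transcripts had the largest fitted differences among the probes with a symbol for fatty acid and sterol synthesis.
fads2 forward: atcgccatttccagcatcac
fads2 reverse: atcccgtactccactggttg
elovl5 forward: gctcactgtagcgtgttagc
elovl5 reverse: ccatgagtagcagtgtgtgc
tm7sf2 forward: aagttcatttggagccgcag
tm7sf2 reverse: ggcgatggtttccagtcttg

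The share of spots well above background, a flag the scanner software sets for each spot, was 23.0% to 31.4% on the Group F arrays and 21.6% to 29.8% on the Group A arrays. The means of 27.9% ± 4.09 in Group F and 24.5% ± 3.65 in Group A (SD, n = 4 each) did not differ beyond the spread of the arrays (two-sided exact permutation test, p = 0.2, the smallest possible p being 0.0286). The arrays lay on 3 slides, with 1, 1 and 2 Group F arrays and 2, 1 and 1 Group A arrays on slides 1, 2 and 3. Slide was therefore a term of the fit. Slide 1 was dimmer, as the 75th percentile of the processed signal before normalization was 22.2 to 32.9 on its arrays. It was 42.4 to 80.2 on the arrays of slides 2 and 3. Both hepatocyte genes with a symbol besides lbp were bright throughout, as serpina1 lay between 17.46 and 18.52 and aldh1l1 between 13.04 and 13.69 normalized log2 units over the 8 arrays. Markers of other cell types in the liver were covered by 2 macrophage genes alone, acp5a and tlr8a, which are described with the immune transcripts. The labels name 4 biological samples per group.

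The 4 Group F arrays did not form one cluster, and neither did the 4 Group A arrays. Over the 14202 probes that were well above background on at least 12 arrays, the root mean squared log2 difference between 2 arrays was taken as their distance. Replicates 3 and 4 of Group F, both on slide 3, were 0.714 apart and were each other's nearest arrays. Their next nearest array was replicate 4 of Group A, also on slide 3, at 0.893 from each, and none of the 16 arrays of Groups B to E lay nearer to either. Replicates 1 and 2 of Group F were 1.04 apart and had arrays of Group E as their nearest, at 0.888 and 0.776, and all 16 arrays of Groups B to E were nearer to them than replicate 4 of Group A. For each of the 5 arrays of Groups B to E on slide 3, 11 to 15 other arrays of Groups B to E lay nearer than replicate 4 of Group A. These counts include arrays of their own group, so they are a description and no check of the slide. In Group A, replicates 1 and 2 had an array of Group C as their nearest, at 0.878 and 0.890. Replicate 3 of Group A had replicate 4 of Group A as its nearest (1.01), and that array had replicate 3 of Group F. In Groups B to E, only replicates 3 and 4 of Group E had an array of their own group as nearest. The median SD of a probe within a group was 0.54 log2 units in Group F, 0.42 to 0.45 in Groups B to E and 0.60 in Group A. The part of the slide in this split of Group F was not tested, and counts and the larger differences are given below also without each slide.

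**Figure D1:**
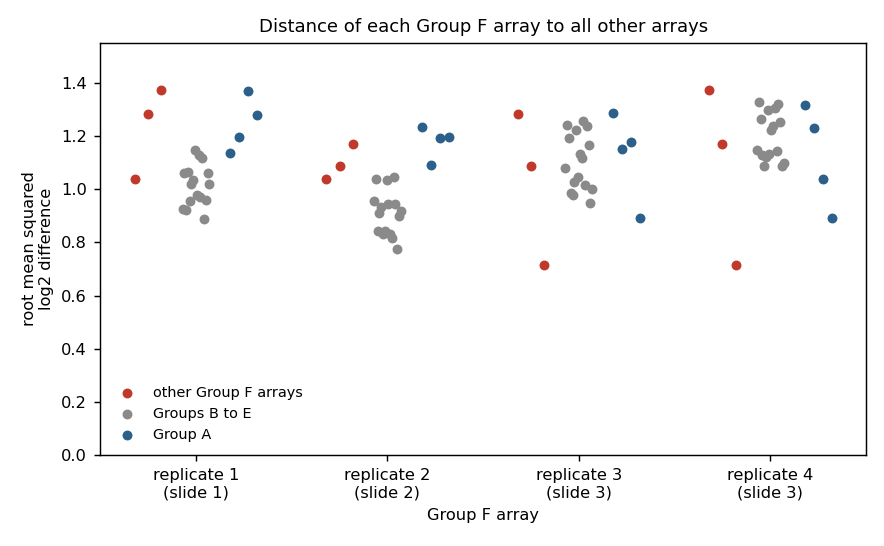
Distance (root mean squared log2 difference over 14202 probes, y axis) of each Group F array (x axis) to the other Group F arrays (red), the arrays of Groups B to E (grey) and the Group A arrays (blue), 1 point per array. Replicates 3 and 4 lay 0.714 apart and 0.893 from the nearest Group A array, below all grey points, whereas replicates 1 and 2 lay nearest to grey points.

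Few transcripts passed the strict threshold between the livers of Group F and Group A, and more passed the lenient one. Differentially expressed transcripts (DETs) were defined by an adjusted p below 0.05 (limma, Benjamini-Hochberg over all probes) with at least a 2-fold difference. By this rule 19 of 60080 probes (0.0316%) were DETs, 14 higher (0.0233%) and 5 lower (0.00832%) in Group F, a balance that turned when some arrays were left out. Significantly expressed transcripts (SETs, unadjusted p below 0.05) numbered 4747 (7.9%), with 2436 higher (4.05%) and 2311 lower (3.85%) in Group F. With no difference on any probe, a fraction of about 0.05 of the probes would still be SETs, so many of these may be such passes. The higher share of SETs was 51.3% and changed to 34.3% and 40.1% when arrays were scaled to the 75th percentile of the bright probes or of all probes. The median log2 difference of all probes was -0.28 and -0.22 under these scalings and -0.01 in the fit reported here. On 1716 probes (2.86%) the groups did not overlap: on 1071 (1.78%) all Group F arrays lay above all Group A arrays, and on 645 (1.07%) they lay below.

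The number of DETs depended on which probes and which arrays entered. It was 154 of 13849 probes (1.11%), 93 higher and 61 lower, when a probe was kept only if bright on at least 3 of the 4 arrays of either group, and 18 of the 19 DETs were among them. It was 9 without replicate 1 of Group F, 11 without replicate 1, 50 (23 higher and 27 lower) without replicate 2 and 33 (14 higher and 19 lower) without replicate 4 of Group A. Without slide 1 there were 40 DETs (14 higher and 26 lower), of which 5 were among the 19. Without slide 2 there were 6 (3 higher and 3 lower), of which 3 were among the 19, and without slide 3 there were 11 (5 higher and 6 lower), of which 2 were among the 19. When the 8 arrays were normalized and fitted alone there were 3 DETs, of which 1 was among the 19.

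**Figure D2:**
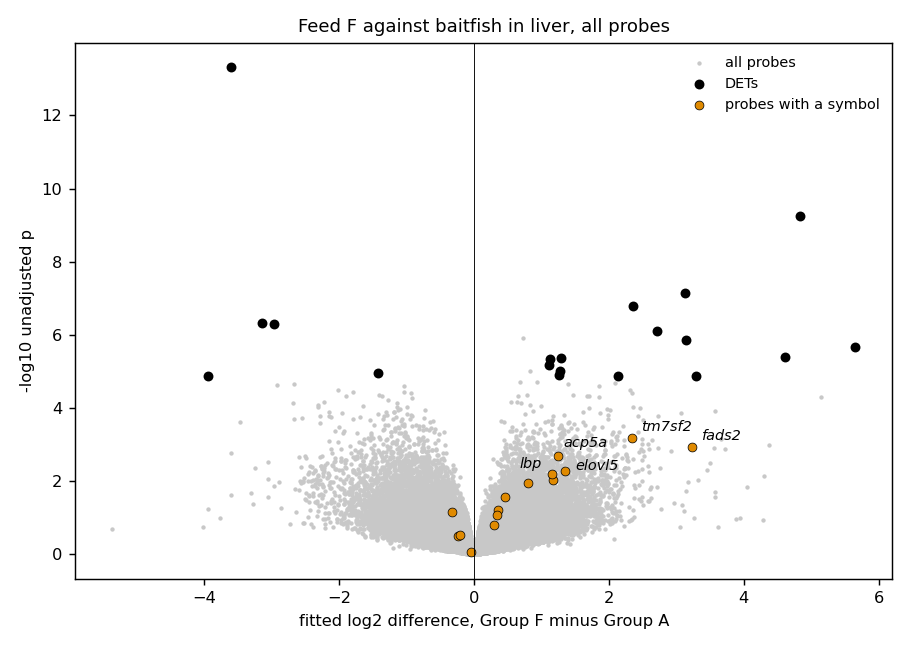
Fitted log2 difference, Group F minus Group A (x axis), against -log10 of the unadjusted p (y axis) for all probes (grey), with the 19 DETs in black and the 15 probes with a symbol in orange. The DETs are 14 to the right and 5 to the left, and no probe with a symbol is among them, tm7sf2 and fads2 having the smallest p of these.

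**Figure D3:**
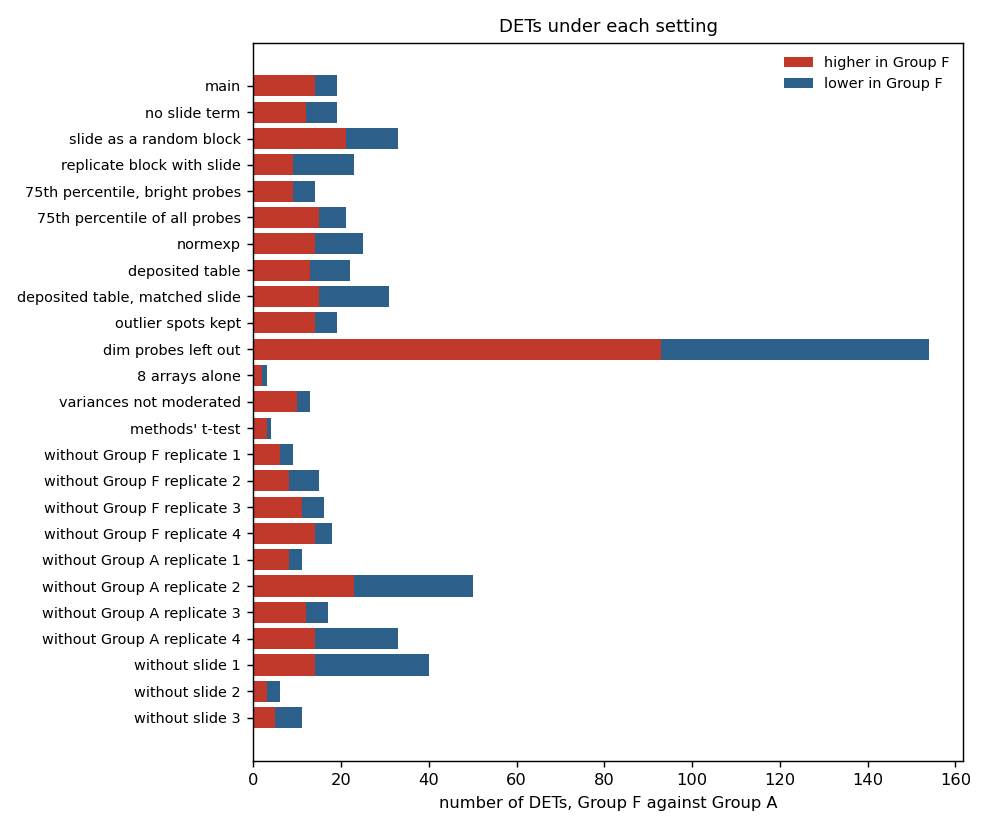
Number of DETs (x axis) higher (red) and lower (blue) in Group F than in Group A under each setting (rows). The count was 19 with the fit reported here (main), 154 with dim probes left out and 3 with the 8 arrays alone.

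The DETs differed widely in how far apart the groups lay. All 19 had no overlap between the arrays of Group F and Group A, and all 19 had the same sign within each of the 3 slides, both of which describe probes chosen by the fit. The gap was narrowest for the lower DET CUST_15004_PI428621111, named after its values were seen, with 11.62 on the highest Group F array and 11.70 on the lowest Group A array. The 14 higher DETs had fitted log2 differences of 1.12 to 5.65 (median 2.53) and the 5 lower DETs of -3.94 to -1.42. Of the 19, 8 were well above background on all 8 arrays, with folds of 2.17 to 28.4. Another 4 higher DETs were not well above background on any Group A array, of which 3 allow a lower limit of 1.44- to 1.97-fold, and 3 lower DETs were not well above background on any Group F array, with limits of at least 2.83- to 3.04-fold. For these limits, each array of the dimmer group was given the signal of its faintest probe that still carried the flag. The limits compare group means and leave out the spread of the arrays. They hold on the scale of the processed signal, and fitted differences of the dim probes named below were smaller in 2 alternatives, normexp (a background correction of the median signal, with an offset of 50) and the deposited table of normalized log2 values.

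Probe CUST_12880_PI428621111 was the higher DET of smallest adjusted p. Its normalized log2 signal was 12.73, 12.98, 13.23 and 13.87 on the Group F arrays, against 8.06, 8.10, 8.41 and 8.73 on the Group A arrays. Every array was well above background, and the lowest Group F array lay far above the highest Group A array. The fitted difference of 4.83 ± 0.39 (SE), or 28.4-fold, had an adjusted p of 1.7e-05 and stayed past the threshold without each of the 8 arrays (adjusted p 7.5e-05 to 0.00023) and without each slide (0.0036 to 0.023). Within slides 1, 2 and 3 the difference was 4.65, 4.58 and 4.81. The arrays of Groups B to E spanned 10.85 to 13.94, above all 4 Group A arrays.

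Probe CUST_10225_PI428621111 had the largest fitted difference of all DETs. It gave 11.32, 10.23, 10.33 and 10.32 on the Group F arrays, against 6.86, 3.01, 5.49 and 4.60 on the Group A arrays, where only the first value was well above background. The lowest Group F array lay more than 3 log2 units above the highest Group A array. The fitted difference of 5.65 ± 0.81 (SE) had an adjusted p of 0.013, which passed the threshold without 7 of the 8 arrays and not without replicate 1 of Group F (adjusted p 0.059). It did not pass without slide 1 (0.092), slide 2 (0.28) or slide 3 (0.14), nor in the fit of the 8 arrays alone (0.41). The fitted difference draws on 3 dim Group A values that lie below the 1 measured Group A level, so no fold is given. The difference was 4.96 without replicate 2 of Group A, 3.80 with normexp and 3.85 in the deposited table.

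Probe CUST_11494_PI428621111 was bright in baitfish-fed livers alone. It gave 2.89, 2.91, 3.42 and 2.84 on the Group F arrays, none of them well above background, against 6.48, 6.25, 6.69 and 6.75 on the Group A arrays, all of them well above it. None of the 16 arrays of Groups B to E was well above background either, so that the probe was flagged bright on 4 of 4 Group A arrays and on 0 of the 20 arrays of pellet-fed fish. Being bright on all 4 Group A arrays was a condition for naming a lower DET, so that count was fixed by the choice. By the group means it was at least 2.95-fold lower in Group F. The adjusted p was 2.9e-09, at most 8.8e-08 when any 1 of the 8 arrays was left out and at most 0.00053 without any 1 slide. In the fit of the 8 arrays alone it was 0.069. The fitted difference was -1.21 with normexp and -1.25 in the deposited table, smaller than that limit, with adjusted p of 8.1e-07 and 5.9e-08.

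Probe CUST_6638_PI428621111 had the most negative fitted difference of the DETs, although only 1 of 4 Group F arrays measured it. It gave 2.90, 2.96, 5.68 and 2.83 on the Group F arrays, where only the third value was well above background, against 7.06, 6.27, 7.26 and 8.50 on the Group A arrays, where all were. The groups did not overlap. The fitted difference was -3.94 ± 0.65 (SE) here, -1.36 with normexp and -1.53 in the deposited table, with adjusted p of 0.038, 0.038 and 0.033. Here it passed the threshold without replicate 3 of Group F (0.016) or replicate 2 of Group A (0.039), but not without any of the other 6 arrays (0.076 to 0.12) or without any slide (0.15 to 0.32). On the 16 arrays of Groups B to E it lay between 2.91 and 7.09 and was well above background on 6.

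On most DETs the arrays of the other pellet groups lay on the Group F side of Group A. For 9 of the 14 higher DETs all 16 arrays of Groups B to E lay above every Group A array, and for 13 at least 12 of them did. For 2 of the 5 lower DETs all 16 lay below every Group A array, and for 4 at least 12 did. Besides CUST_11494_PI428621111 and CUST_6638_PI428621111, 2 lower DETs were flagged bright on 2 and 3 of the 4 Group E arrays. On the 12 arrays of Groups B to D neither was bright. The remaining lower DET, CUST_15004_PI428621111, was bright on all 24 arrays. These levels share the Group A arrays with the comparison that chose the DETs, so the counts are a description. The share of all probes that meet the same criteria was not computed.

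**Figure D4:**
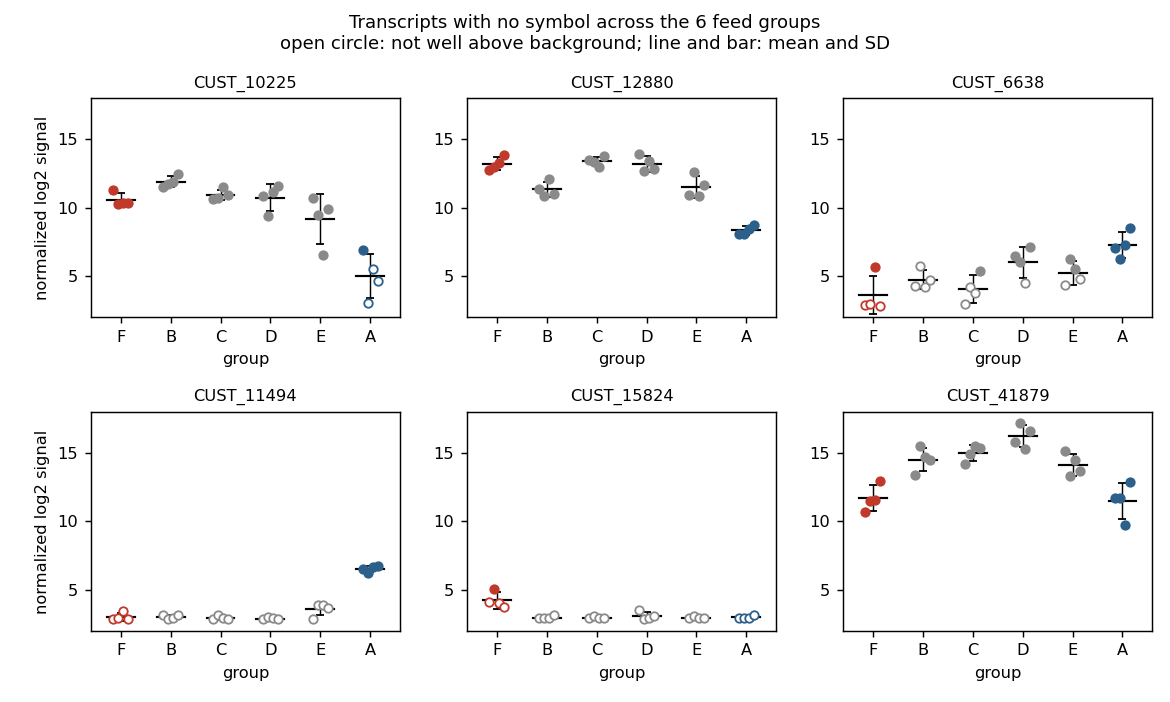
Normalized log2 signal (y axis) of 6 probes with no symbol on each array of Groups F, B, C, D, E and A (x axis), with group means and SD (n = 4 each). Open circles are not well above background. The first 4 probes separate Group F from Group A, and the last 2 separate Group F from Groups B to E.

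Of the 15 transcripts with a symbol, none was a DET (limma, adjusted p 0.17 to 1.0), and 8 were SETs, all of them higher in Group F, against 4.05% of all probes that were SETs higher. The median log2 difference was 0.46 over the 15 and -0.01 over all probes. Of the 15, 3 had no overlap between the groups, all with Group F above Group A, against 1.78% of all probes. The number of higher SETs was 7 or 8 under both 75th-percentile scalings, where the median of the 15 was 0.43 and 0.49, and under the methods' t-test 4 were SETs and none was a DET. It was 5 without slide 1, 4 without slide 2, 10 without slide 3 and 5 in the 8 arrays alone. The study chose most of these transcripts on arrays of this series, so they are not independent evidence of a direction. In bulk liver, fewer cells of a type and less RNA per cell cannot be told apart.

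Fatty acid synthesis was represented by 3 transcripts, of which 2 were SETs. For fads2 the normalized log2 signal was 9.05, 8.73, 10.40 and 9.77 on the Group F arrays, against 7.86, 3.33, 5.50 and 7.74 on the Group A arrays. All Group F arrays lay above all Group A arrays, of which 2 were not well above background and spread the group over more than 4 log2 units. The fitted difference was 3.23 (95% interval 1.48 to 4.99), with unadjusted p = 0.0012 and adjusted p = 0.21, and no fold is given since only 2 of 4 Group A arrays measured it. It was 2.42 without replicate 2 and 3.88 without replicate 1 of Group A, 2.08 with normexp, 2.16 in the deposited table and 2.17 with the replicate block, and without 1 slide it was 2.98 to 3.24. Within slides 1, 2 and 3 it was 3.46, 3.23 and 2.35.

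For elovl5 the signal was 7.58, 6.46, 6.28 and 5.36 on the Group F arrays, against 6.57, 5.25, 3.70 and 5.63 on the Group A arrays. All 4 Group F arrays were well above background, but only 2 of the Group A arrays were. Only 1 Group F array lay above all Group A arrays. The fitted difference of 1.34 (0.45 to 2.23) had an adjusted p of 0.31, and within slides it was 1.67, 2.76 and 0.19, so that it was small on slide 3. It was 0.86 without slide 2, 1.98 without slide 3, 0.61 with normexp and 0.59 in the deposited table. The third member, elovl1b, an elongase of very long saturated and monounsaturated chains, differed by 0.35 (-0.06 to 0.75, adjusted p = 0.70), and its groups overlapped.

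Sterol synthesis was represented by tm7sf2. Its signal was 5.83, 7.32, 6.68 and 6.97 on the Group F arrays, of which 3 were well above background, against 3.30, 5.11, 3.15 and 5.03 on the Group A arrays, of which none was. The groups did not overlap, and the Group F mean was at least 2.37-fold above the Group A mean on the scale of the processed signal. This limit leaves out the spread of the arrays, and it includes the Group F value of 5.83, which was not well above background. With normexp and in the deposited table the fitted difference was 0.74 and 0.81, below that limit (adjusted p 0.45 and 0.43), against 2.35 here, and without slides 1, 2 and 3 it was 2.95, 1.71 and 2.54. Its adjusted p of 0.17 was the smallest of the 15. With dim probes left out it was 0.046 and tm7sf2 was a DET, the only call that any alternative added among the 15. The probe passed that filter only through Group F, the group where it was higher, and its fitted difference stayed at 2.35. The call is therefore no further support for a difference.

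Among the immune transcripts, lbp, tlr8a and tnfsf14 were SETs. For lbp the signal was 9.28, 9.84, 8.01 and 8.41 on the Group F arrays, against 8.08, 7.79, 7.73 and 7.65 on the Group A arrays. Replicate 3 of Group F lay inside the range of Group A and the other 3 above it. The fitted difference of 1.15 (0.37 to 1.93) had an adjusted p of 0.33, and without slide 3 it was 1.72 (adjusted p = 0.32).

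The receptor gene tlr8a, which in mammals encodes an endosomal sensor of single-stranded RNA, gave 5.18, 6.05, 4.83 and 4.01 on the Group F arrays, against 3.87, 4.54, 3.86 and 3.43 on the Group A arrays. Only 1 of the 8 values was well above background, so no fold is given. For tnfsf14, a cytokine of the tumour necrosis factor family, the signal was 6.25, 6.74, 5.77 and 5.96 on the Group F arrays, against 5.75, 5.24, 4.69 and 5.83 on the Group A arrays, with a fitted difference of 0.79 (0.21 to 1.38, adjusted p = 0.39). All 4 Group F arrays but only 1 Group A array were well above background for tnfsf14. Its difference was 0.34 with normexp and 0.31 in the deposited table, and within slides 1, 2 and 3 it was 0.76, 2.05 and 0.04.

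For acp5a, an acid phosphatase of macrophages and bone-resorbing cells, the signal was 6.37, 7.41, 6.25 and 6.37 on the Group F arrays, against 5.36, 5.34, 5.48 and 5.36 on the Group A arrays. All 4 Group F arrays were well above background and above every Group A array, of which 1 was well above background. The fitted difference was 1.24 (0.52 to 1.96, adjusted p = 0.25), 1.02 to 1.48 without 1 slide, 0.54 with normexp and 0.56 in the deposited table. Of the 2 macrophage genes, acp5a thus spanned 6.25 to 7.41 in Group F against 5.34 to 5.48 in Group A, tlr8a was well above background on 1 Group F array and on no Group A array, and their part in the other results was not tested.

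The remaining transcripts with a symbol differed little. The gene gnpda1, which encodes a glucosamine-6-phosphate deaminase, was a SET at 0.46 (0.06 to 0.85, adjusted p = 0.52). Among the one-carbon enzymes of folate metabolism, aldh1l1 differed by -0.24 (-0.73 to 0.25) and shmt2 by 0.30 (-0.13 to 0.74). Of the secretory genes, p4hb, a protein disulfide isomerase, differed by -0.21 (-0.61 to 0.19), ssr1, a subunit of the translocon-associated complex, by -0.04 (-0.41 to 0.33), and serpina1 by -0.33 (-0.68 to 0.03). The sign of ssr1 changed under 7 of 16 alternative settings, scaling to the 75th percentile of all probes among them, so no direction is given for it. The lipid kinase gene pip4k2aa differed by 0.36 (-0.02 to 0.74).

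**Figure D5:**
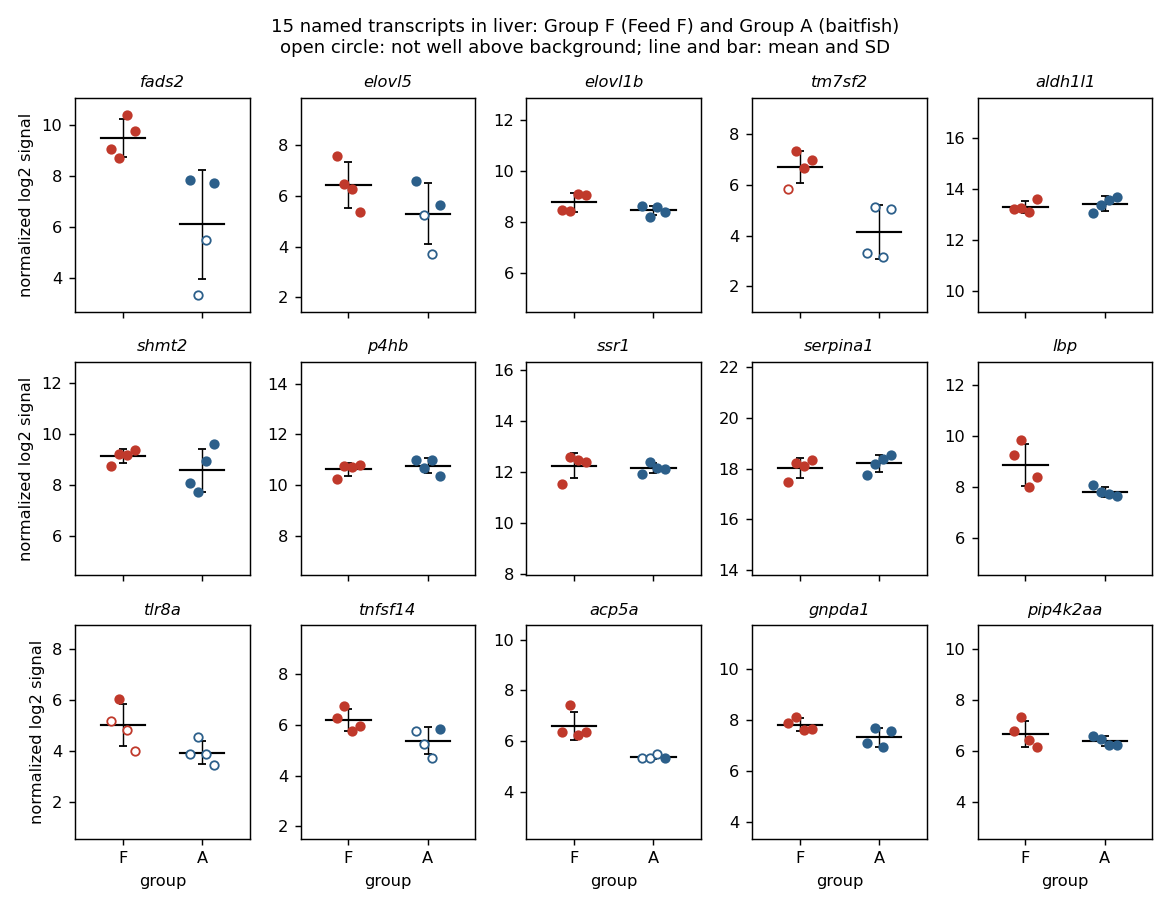
Normalized log2 signal (y axis, each panel spanning the same number of log2 units) of the 15 transcripts with a symbol on the arrays of Group F (red) and Group A (blue), with mean and SD (n = 4 each). Open circles are not well above background. The groups do not overlap for fads2, tm7sf2 and acp5a.

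Against the mean of the other pellets, Groups B to E, Group F differed in 2 DETs (0.00333%), or in 8 of 13849 probes (0.0578%) with dim probes left out, and 4698 probes (7.82%) were SETs, 2716 higher (4.52%) and 1982 lower (3.3%) in Group F. The filter for dim probes was the one used above, on Groups F and A. Brightness in Groups B to E did not enter it, so probes bright only there were dropped. Both DETs were chosen for naming after their values were seen. Probe CUST_41879_PI428621111 gave 10.68, 11.49, 11.59 and 12.98 on the Group F arrays, against 13.29 to 17.16 (median 15.05) on the 16 arrays of Groups B to E. No Group F array reached the lowest of them. The fitted difference of -3.41 ± 0.49 (SE) had an adjusted p of 0.049. On the Group A arrays the probe gave 11.73, 11.70, 9.71 and 12.90, and Group F minus Group A was 0.04 (-1.29 to 1.36).

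Probe CUST_15824_PI428621111 was at the edge of detection. It gave 4.07, 5.08, 4.00 and 3.71 on the Group F arrays, of which only the second was well above background, against 2.87 to 3.54 on Groups B to E, where none of the 16 was. Its adjusted p was 0.042 here, 0.48 with normexp and 0.28 in the deposited table. No fold is given, since 19 of the 20 values are dim. The probe was also a higher DET against Group A (limma, adjusted p = 0.038), where no array was well above background either.

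Both calls against Groups B to E were close to the threshold. The number of DETs was 16 without replicate 1 of Group F, 22 without replicate 2 and 4 without replicate 3. It was 4 without replicate 2 of Group B, 1 without replicate 3 of Group B or replicate 1 of Group D, and 0 without replicate 4 of Group B, replicate 2 or 3 of Group C, replicate 2, 3 or 4 of Group D, or replicate 2, 3 or 4 of Group E. It was 26 without slide 1 and 2 without slide 2 or slide 3, and neither named probe was among these (adjusted p 0.084 to 0.40 for CUST_41879_PI428621111 and 0.073 to 0.14 for CUST_15824_PI428621111). In the 20 fits that each left out 1 array, CUST_41879_PI428621111 stayed below an adjusted p of 0.05 in 6 and CUST_15824_PI428621111 in 11.

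Most transcripts with a symbol had a Group F mean between those of the baitfish group and the other pellet groups. For 14 of the 15, all but ssr1, the Group F mean lay between the mean of Groups B to E and the mean of Group A. By the same rule it lay between them for 31.5% of all probes. The study chose most of the 15 on differences between groups of these arrays. Setting their count against that share is therefore no test, and both are a description. Against Groups B to E, 7 of the 15 were SETs lower (3.3% of all probes) and 4 were SETs higher (4.52%) in Group F, and none was a DET (limma, adjusted p 0.42 to 1.0). The 7 lower ones were elovl1b, elovl5, gnpda1, pip4k2aa, shmt2, tlr8a and tnfsf14, and the 4 higher ones were aldh1l1, p4hb, serpina1 and ssr1. For elovl5 the difference was -0.96 (-1.66 to -0.26), against 1.34 for Group F minus Group A. For fads2 it was -0.16 (-1.54 to 1.22), with a range of 8.73 to 10.40 on the Group F arrays and of 8.40 to 11.52 on those of Groups B to E. Both comparisons share the Group F arrays.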

How the data were processed

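Liver RNA was hybridised to 24 one-colour Agilent arrays, and the deposited scanner files hold intensity values (processed, median and background signal) with flags of other kinds, extracted by the authors with Feature Extraction 10.7.1.1. A deposited table of log2 values, normalized by the authors, was used as an alternative alone. In it the columns of Group F replicates 2, 3 and 4 match the scanner arrays of replicates 4, 2 and 3 (r = 0.96, 0.91 and 0.92), which stays within Group F.

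Control and outlier spots were left out, repeat spots averaged, and the processed signal quantile-normalized over 24 arrays and log2-transformed. All 60080 probes were fitted by group and slide (limma 3.58.1, R 4.3.3; prior degrees of freedom 1.21), with Benjamini-Hochberg adjustment. A probe was well above background on an array when over 50% of its spots were. Tested on simulated data for Group F minus Group A (60032 probes), the fit called 64 of 100 probes changed by 2 log2 units, 83 of 100 changed by 3, and 9 unchanged ones. The simulated noise had the same spread in every group, whereas the data spread more in Groups F and A than in Groups B to E. The simulation does not cover that difference.

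Named were the probes with a symbol, and 2 higher and 2 lower DETs of largest difference that were bright on all arrays of the brighter group. Members and lists were chosen with earlier results of these data known. Array number limits the precision.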

Additional observations from a re-analysis of the deposited data

Results flagged for a closer look

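Of 46 sets of 4 arrays that were examined (the named probes and the 2 measures of array signal, in Group F and in Group A), 8 held an array far from the other 3, and chance gives about 1 set in 20. In Group F these were replicate 2 for acp5a (7.41 log2 units), replicate 1 for p4hb (10.26) and for CUST_10225_PI428621111 (11.32), replicate 3 for CUST_6638_PI428621111 (5.68) and for CUST_11494_PI428621111 (3.42, not well above background), and replicate 1 for the 75th percentile of the processed signal (30.5). In Group A they were replicate 3 for acp5a (5.48) and replicate 4 for CUST_15824_PI428621111 (3.12), both not well above background.

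The response to Feed F differed from the mean response to Feeds B to E, by the test of that difference, for CUST_41879_PI428621111 (-3.41 log2 units) and CUST_15824_PI428621111 (1.24). The second value is no measured level, since 19 of its 20 arrays are not well above background, and it was 0.20 with normexp and 0.28 in the deposited table (adjusted p 0.48 and 0.28). Neither difference held in every fit that left out 1 array.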

How the results depend on the processing

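For Group F against Group A, the 19 DETs became 33 with slide as a random block, 154 with dim probes left out, 3 in the 8 arrays alone and 4 by the methods' t-test. The 4747 SETs became 2384 with dim probes left out and 2161 by the methods' t-test. Leaving out 1 array gave 9 to 50 DETs and 4445 to 5486 SETs. Chosen after seeing the data, the deposited table with the slide of the matching scanner file gave 31 DETs, and leaving out slide 1, 2 or 3 gave 40, 6 or 11. Against Groups B to E, the 2 DETs became 1 with no slide term or with the deposited table (either slide), 0 with 75th-percentile scaling of bright probes or unmoderated variances, 8 with probes dim in Groups F and A left out, 4 by adjusted p alone, 26 without slide 1, and 0 to 22 when 1 array was left out.

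The labels do not pair replicate numbers, and they were therefore not taken as pairs. Deviations of same-numbered arrays of Group F and Group A nevertheless correlated at 0.39, 0.22, -0.03 and 0.33. These were deviations from the group means, with slide effects left in. The arrays numbered 1 shared slide 1 and those numbered 4 shared slide 3, whereas those numbered 2 and those numbered 3 lay on different slides. Whether the numbers mark a shared factor was not tested. Replicates 1, 2 and 4 of Group F correlated best with their own number. Replicate 3 correlated best with replicate 4 of Group A, which lay on the same slide. The replicate block with slide gave 23 DETs (9 higher and 14 lower, 12 of them among the 19) and 5645 SETs against Group A, and 0 DETs against Groups B to E, with CUST_41879_PI428621111 and CUST_15824_PI428621111 at an adjusted p of 0.11.

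The sign of ssr1 turned with no slide term and by the methods' t-test (0.11 each), with the random block (0.040), the replicate block (0.026), the 75th percentile of all probes (0.044), the 8 arrays alone (0.020) and without slide 1 (0.32), and spanned -0.23 to 0.12 when 1 array was left out. That of aldh1l1 turned with the replicate block (0.081), and those of p4hb (0.057) and shmt2 (-0.064) without slide 1. The causes were not tested. The share of spots well above background differed by 2.28 to 5.18 points when 1 array was left out, and 1206 and 2314 probes separated the groups under the other scaling and with slide effects removed, against 1716.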
